A study of Mus musculus with 6 samples.

Results

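Senescence and p53 response genes were followed in mouse liver in which the gene of senescence marker protein 30 (SMP30, also called gluconolactonase or regucalcin) had been deleted. A list of 10 genes was given by name, and a gene was kept where a probe set of the array carried its symbol alone. This left 8 of the 19550 genes with a value, namely Mdm2, Ccng1, Gadd45a, Cdkn2a, Cdkn2b, Cdkn2c, Glb1 and Lmnb1, each on 1 probe set. Cdkn1a lay only on a probe set shared with another gene, so no value is given for it, and Trp53 was not analysed here. All 8 genes passed the filter on low values described with the tests.

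The arrays were Affymetrix GeneChips hybridised with biotin-labelled total RNA from liver of male mice of strain background C57BL/6NCrSlc, 2 arrays in each of 3 groups. AA-deficient KO mice were SMP30/GNL KO animals on a diet without ascorbic acid (AA, vitamin C). AA-supplemented KO mice had the same genotype and diet, and received AA in drinking water stabilised with EDTA, at a level described as keeping tissue AA normal. WT mice ate the same AA-deficient diet and drank water without the vitamin. Mice make their own AA and need gluconolactonase to do so, so the diet alone does not deprive WT animals. The labels used here give no age and do not say whether water without AA held EDTA. They list 2 samples a group without naming separate animals, so a p-value here rests on the spread of samples that may be technical repeats.

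p53 is a transcription factor that is stabilised after DNA damage and other stress and induces genes that stop the cell cycle, repair DNA or kill the cell. Mdm2 is both a p53 target and the ubiquitin ligase that degrades p53, which closes a feedback loop. Lasting arrest, or senescence, is held by inhibitors of cyclin-dependent kinases (CDKs), among them those of the Cdkn2 (INK4) genes, and is recognised by raised lysosomal beta-galactosidase activity and loss of lamin B1. SMP30 itself was named for its decline in ageing rodent liver.

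Ccng1 encodes cyclin G1, which in mouse is a direct p53 target. Its promoter is shown because it is the only one of 9 windows found for 7 of the 8 genes that held a p53 response element. The window is the 250 bases before the gene start in the RefSeq promoter table (GRCm38.p6, chr11:40755287-40755536, minus strand), and capitals mark the element, 2 adjoining p53 half-sites of 20 bases in all with 1 mismatch allowed.
Ccng1: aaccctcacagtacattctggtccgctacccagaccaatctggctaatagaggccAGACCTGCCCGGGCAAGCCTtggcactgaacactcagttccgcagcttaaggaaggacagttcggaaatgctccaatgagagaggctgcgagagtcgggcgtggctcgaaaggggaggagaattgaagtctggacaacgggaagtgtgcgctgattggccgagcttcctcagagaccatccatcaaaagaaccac
The element has its 1 mismatch at position 5, counted from its 5′ end, and ends 175 bases before the gene start. The pattern searched, though not this sequence, is its own reverse complement, so 1 search covers both strands. Of 32851 promoter windows of that length, 25 (0.076%) held such an element. The search was chosen after the array values had been seen, a match of letters is no proof of binding, and elements outside these windows, such as those in introns, were not searched.

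Values are the deposited log values, read here as log10, and folds hold on that reading only. Differences were tested with limma on 14662 genes in one fit over the 6 arrays, with Benjamini-Hochberg adjustment over all genes tested and a call at an adjusted p under 0.05. Rgn, the deleted gene, was at 0.229 and 0.297 in AA-deficient KO livers, 0.339 and 0.141 in AA-supplemented KO livers, and 2.07 and 1.996 in WT livers, low on all 4 KO arrays. Where its probes lie relative to the deleted part is not known here. Hepatocyte markers fit the labelled tissue, with all 7 measured at or above the 98.5th percentile of genes by mean value. Over all probe sets with a value, arrays of one group correlated at 0.965 to 0.975 and arrays of different groups at 0.945 to 0.974, so some arrays of different groups were as alike as replicates. The SD of the difference between replicate arrays was 0.0794 in AA-deficient KO, 0.104 in AA-supplemented KO and 0.0788 in WT livers.

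None of the 8 genes was called in any of the 3 comparisons. Among all genes tested, 0.205% were called between AA-deficient and AA-supplemented KO livers, 4.63% between AA-deficient KO and WT livers and 0.00682% between AA-supplemented KO and WT livers. A moderated F test for any difference among the 3 groups also called 0 of the 8, against 1.36% of all genes. At an unadjusted p under 0.05 the counts were 1 (Ccng1), 1 (Cdkn2c) and 0 genes in the order given, against 9.92%, 20.4% and 10.6% of all genes. The F test had 0 members at that level, against 16.8% of all genes. Of the 24 differences, the 95% intervals of 22 lay wholly within 2-fold either way and those of 16 within 1.5-fold. The 2 that reached beyond 2-fold belonged to Gadd45a. Cdkn2a (0.220 to 0.386), Cdkn2b (0.230 to 0.356) and Lmnb1 (0.222 to 0.346) had low values, largely in the range of the deleted Rgn in KO livers. Their values cannot be separated from background, so their intervals do not bound the true folds. In bulk liver RNA, fewer cells of a type and less RNA per cell cannot be told apart.

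**Figure D1:**
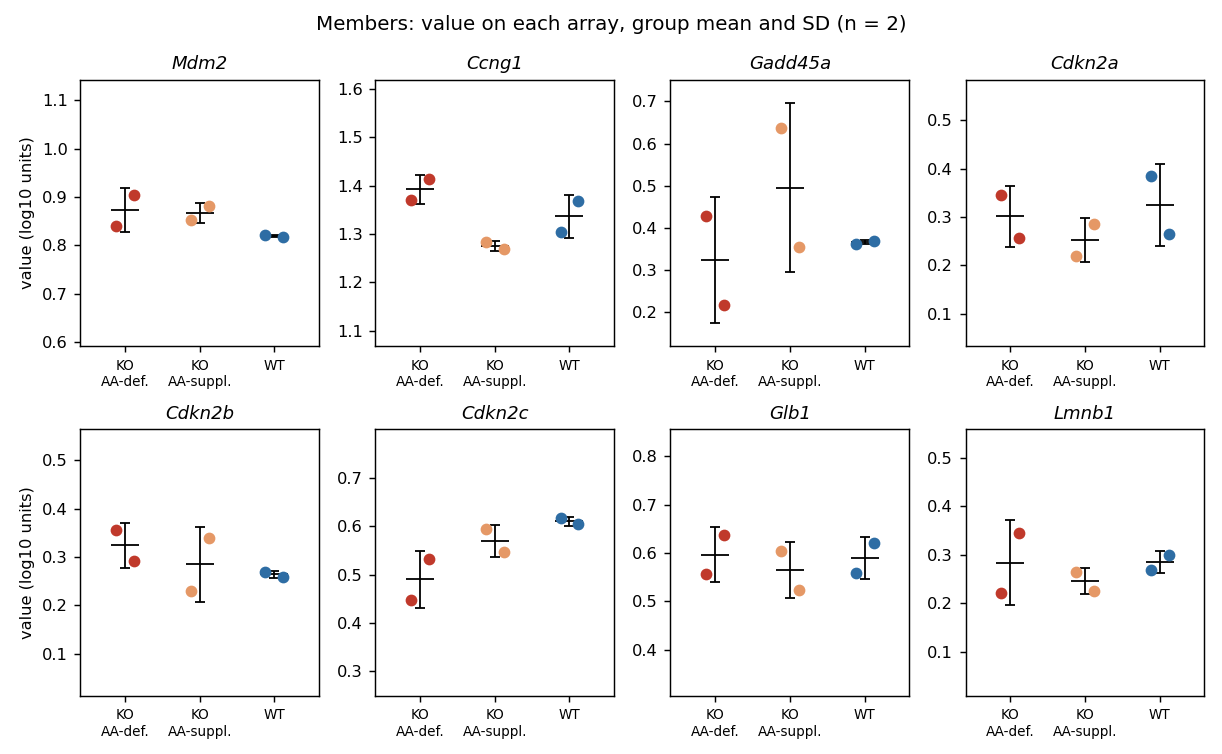
Value of each of the 8 genes on each array (points, log10 units) with the group mean and SD (bars, n = 2), from left to right AA-deficient KO, AA-supplemented KO and WT. Scales differ in position and, for Gadd45a, in span. Ccng1 is highest in AA-deficient KO livers (1.37 and 1.41), Cdkn2c lowest there (0.448 and 0.532), and Gadd45a spreads widely within both KO groups.

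Mdm2 (Entrez 17246, probe set 10372668), the ligase that degrades p53, had values of 0.841 and 0.905 in AA-deficient KO livers, 0.853 and 0.882 in AA-supplemented KO livers, and 0.821 and 0.817 in WT livers. All 4 KO arrays lay above both WT arrays, and the KO groups overlapped. The difference from WT was 0.0535 in AA-deficient KO livers (SE 0.0425, 1.13-fold, adjusted p = 0.546 in limma) and 0.0481 in AA-supplemented KO livers (SE 0.0425, 1.12-fold, adjusted p = 0.745). Between the KO groups it was 0.00538 (95% interval -0.0928 to 0.104).

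Ccng1 (Entrez 12450, probe set 10385271), the cyclin G1 gene whose promoter is printed above, was at 1.37 and 1.41 in AA-deficient KO livers, 1.28 and 1.27 in AA-supplemented KO livers, and 1.30 and 1.37 in WT livers. The 3 groups did not overlap: AA-deficient KO arrays were highest, WT arrays came between, and AA-supplemented KO arrays were lowest, although the lower AA-deficient KO array (1.3711) exceeded the higher WT array (1.3681) by only 0.0030. The difference between AA-deficient and AA-supplemented KO livers was 0.116 (SE 0.0432, 1.31-fold, 95% interval 0.0165 to 0.216) with an unadjusted p of 0.0277 in limma and an adjusted p = 0.415, so it was not called. Against WT it was 0.0558 in AA-deficient KO livers (SE 0.0432, adjusted p = 0.533) and -0.0606 in AA-supplemented KO livers (SE 0.0432, adjusted p = 0.677).

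Gadd45a (Entrez 13197, probe set 10545130) encodes a stress-induced protein that acts in growth arrest and DNA repair and is induced by p53 as well as by other pathways. It was at 0.428 and 0.218 in AA-deficient KO livers, 0.638 and 0.353 in AA-supplemented KO livers, and 0.362 and 0.369 in WT livers. The groups overlapped in every comparison, and the 2 arrays of each KO group lay far apart, one above and one below both WT arrays. Its SD within groups, 0.144, stood at the 98.5th percentile of all genes tested. The difference between AA-deficient and AA-supplemented KO livers was -0.172 (SE 0.0970, adjusted p = 0.652 in limma), with a 95% interval of -0.397 to 0.0520. Against WT it was -0.0424 in AA-deficient KO livers (adjusted p = 0.861) and 0.130 in AA-supplemented KO livers (adjusted p = 0.694).

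The Cdkn2 genes encode CDK inhibitors that block the kinases of the cyclin D complexes. Cdkn2a (Entrez 12578, probe set 10514340), whose locus gives both the INK4a inhibitor and the p53-stabilising ARF protein, was at 0.346 and 0.257 in AA-deficient KO livers, 0.220 and 0.285 in AA-supplemented KO livers, and 0.386 and 0.265 in WT livers. The groups overlapped in all 3 comparisons. Its differences were 0.0489 between the KO groups, -0.0237 between AA-deficient KO and WT livers and -0.0725 between AA-supplemented KO and WT livers, each with an SE of 0.0564 and an adjusted p of 0.708 or more. One probe set cannot separate the 2 products of the locus.

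Cdkn2b (Entrez 12579, probe set 10514347), the neighbouring INK4b inhibitor, was at 0.356 and 0.291 in AA-deficient KO livers, 0.230 and 0.340 in AA-supplemented KO livers, and 0.269 and 0.259 in WT livers. Both AA-deficient KO arrays lay above both WT arrays, by 0.0595 on average (SE 0.0502, adjusted p = 0.574 in limma), and the other pairs of groups overlapped. The values of Cdkn2a and Cdkn2b stood little above the filter on low values, set at 0.185, and no detection call was used here, so low values cannot be separated from background.

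Cdkn2c (Entrez 12580, probe set 10515090), the INK4c inhibitor, was at 0.448 and 0.532 in AA-deficient KO livers, 0.593 and 0.546 in AA-supplemented KO livers, and 0.616 and 0.604 in WT livers. The 3 groups were apart, with AA-deficient KO arrays lowest and WT arrays highest. AA-deficient KO livers differed from WT by -0.120 (SE 0.0457, 1.32-fold lower, 95% interval -0.226 to -0.0145), at an unadjusted p of 0.0306 in limma and an adjusted p = 0.188, so the difference was not called. AA-supplemented KO livers differed from WT by -0.0405 (adjusted p = 0.813), and AA-deficient from AA-supplemented KO livers by -0.0797 (adjusted p = 0.659).

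Glb1 (Entrez 12091, probe set 10589889) encodes lysosomal beta-galactosidase, the source of the activity that stains senescent cells. It was at 0.556 and 0.637 in AA-deficient KO livers, 0.605 and 0.523 in AA-supplemented KO livers, and 0.558 and 0.619 in WT livers. The groups overlapped in all comparisons. AA-deficient KO livers differed from WT by 0.00772 (SE 0.0506, adjusted p = 0.955 in limma), with a 95% interval of -0.109 to 0.125, and AA-supplemented KO livers by -0.0246 (adjusted p = 0.907).

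Lmnb1 (Entrez 16906, probe set 10455813), the lamin B1 gene, was at 0.222 and 0.346 in AA-deficient KO livers, 0.265 and 0.226 in AA-supplemented KO livers, and 0.269 and 0.301 in WT livers. AA-supplemented KO arrays lay below WT arrays, by a gap of 0.0041 between the nearest 2, and the AA-deficient KO arrays spanned both other groups. The difference from WT was -0.000678 in AA-deficient KO livers (SE 0.0512, 95% interval -0.119 to 0.118) and -0.0393 in AA-supplemented KO livers (adjusted p = 0.840 in limma). Its values too stood little above the filter.

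**Figure D2:**
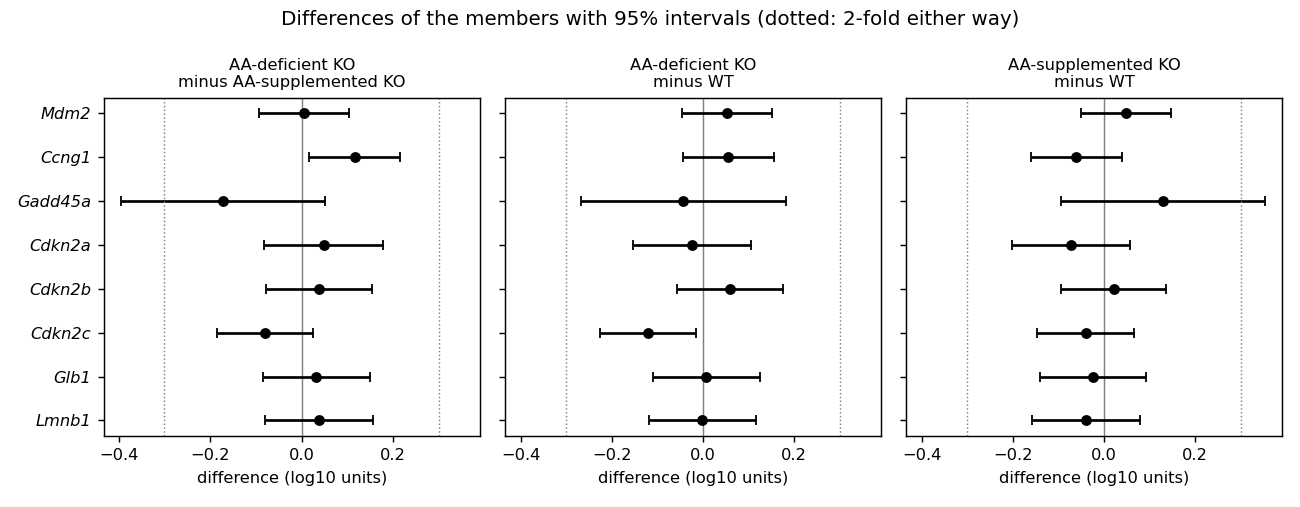
Difference of each gene in the 3 comparisons (log10 units, points) with its 95% interval from limma (bars, not adjusted for the number of genes); dotted lines mark 2-fold either way. Only the intervals of Ccng1 between the KO groups and of Cdkn2c between AA-deficient KO and WT livers leave out 0, and neither difference was called.

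In the size of their differences the 8 genes did not stand out as a set from the other genes tested. Their median absolute difference was 0.0438 between the KO groups, 0.0480 between AA-deficient KO and WT livers and 0.0443 between AA-supplemented KO and WT livers, and that of all genes was 0.0410, 0.0565 and 0.0444 in the same order. Groups did not overlap for 2, 4 and 4 of the 8 genes, against 37.3%, 54.5% and 38.6% of all genes. Their median signed difference was 0.0355, 0.00352 and -0.0320, against 3.14e-05, -0.00335 and -0.00167 for all genes. Above 0 were 6, 4 and 3 of the 8, and these comparisons share samples. Whether the signed medians differ from those of all genes was not tested. The 6 genes above 0 between the KO groups took in Lmnb1, which senescent cells lose, as well as Cdkn2a and Cdkn2b, which they gain.

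Other genes that p53 induces held no call in this fit. Of 30 listed, 27 were tested and 0 were called by limma in each comparison. At an unadjusted p under 0.05 there were 4, 3 and 0 in the order above, against 9.92%, 20.4% and 10.6% of all genes. Of the 4, 3 were higher and 1 lower, and the 3 were all higher. The median difference of the 27 was 0.0211 between the KO groups, -0.00418 between AA-deficient KO and WT livers and -0.0232 between AA-supplemented KO and WT livers. That of all genes was 3.14e-05, -0.00335 and -0.00167. Trp53inp1, a p53-induced nuclear protein, had the smallest p of the list. It was at 1.21 and 1.26 in AA-deficient KO livers, 0.999 and 1.16 in AA-supplemented KO livers, and 1.02 and 0.967 in WT livers. It differed by 0.240 between AA-deficient KO and WT livers (SE 0.0590, adjusted p = 0.0610 in limma). It was called in 8 of 17 other settings, among them a variance trend, the filter at the 50th percentile and the fit of only the 4 arrays compared (adjusted p 0.0123 to 0.287 over all 17). Btg2, an antiproliferative gene, was at 0.549 and 0.531 in AA-deficient and 0.673 and 0.689 in AA-supplemented KO livers (difference -0.141, SE 0.0410, adjusted p = 0.281). Gadd45g and Gadd45b, paralogues of Gadd45a, were not called either. Gadd45g was at 0.584 and 0.222 in AA-deficient KO and 0.797 and 0.684 in WT livers (difference -0.337, SE 0.123, adjusted p = 0.171), and Gadd45b differed by -0.0772 between the KO groups (adjusted p = 0.828).

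Of 13 tested regulators of p53, Hipk2, a kinase that phosphorylates p53 after damage, was the 1 called in this fit. Between AA-deficient KO and WT livers 6 of the 13 had an unadjusted p under 0.05, 5 of them higher, against 20.4% of all genes, and groups did not overlap for 10 of 13, against 54.5%. Mdm4, an inhibitor of p53 related to Mdm2, was named here after its values were seen. It differed by 0.195 in that comparison (adjusted p = 0.0582 in limma). Some other settings called it, among them a variance trend and the fit of only the 4 arrays compared, and some did not. In settings that kept both arrays of each group compared, 1 to 3 of the regulators were called. Hipk2 rose in AA-deficient KO livers, with values of 1.40 and 1.38 there, 1.30 and 1.38 in AA-supplemented KO livers, and 0.972 and 1.07 in WT livers. All 4 KO arrays were above both WT arrays. The rise against WT was 0.375 in AA-deficient KO livers (SE 0.0494, 2.37-fold, adjusted p = 0.0121 in limma), and the difference in AA-supplemented KO livers was 0.318 (SE 0.0494, adjusted p = 0.135), which was called only with a variance trend, robust or not (lowest adjusted p 0.00927). Across all genes, 3.08% were called higher in AA-deficient KO than in WT livers. Genes with a long span in the genome were common among these: 52.4% of 450 were as long as or longer than 63.3 kb, which 20% of the genes tested were. Hipk2 spans 188.8 kb, and 8 of the 13 regulators and 1 of the 8 senescence and p53 genes (Glb1) fell among the longest. The part of gene span in the rise was not tested.

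Lists of cell cycle genes also held calls. Ccnd1 and Ccne1, the cyclins that start the cycle, fell in AA-deficient KO livers against WT. They were 2 of 8 tested G1 cyclins and kinases, against 1.55% of all genes called lower. Of the 8, 4 lay above 0 and 4 below, with a median of 0.00514. At an unadjusted p under 0.05 in limma there were 4, of which 3 were lower and 1 higher, against 20.4% of all genes. Ccnd1 was at 0.743 and 0.784 in AA-deficient KO livers, 0.961 and 1.01 in AA-supplemented KO livers, and 1.07 and 1.06 in WT livers. The fall against WT had a difference of -0.304 (SE 0.0417, 2.01-fold lower, adjusted p = 0.0142 in limma). Ccne1 was at 0.292 and 0.245 in AA-deficient KO livers, 0.531 and 0.534 in AA-supplemented KO livers, and 0.595 and 0.596 in WT livers (difference from WT -0.327, SE 0.0403, adjusted p = 0.0104). For both cyclins the AA-deficient KO arrays stood apart below the other 4. The Ccne1 values there lay in the range of the deleted Rgn in KO livers (0.141 to 0.339). They cannot be separated from background, so the true size of the Ccne1 fall is not settled. The differences from AA-supplemented KO livers, -0.220 for Ccnd1 (adjusted p = 0.117) and -0.264 for Ccne1 (adjusted p = 0.0655), were not called in this fit. Other settings called Ccnd1 in 2 of 17, both with a variance trend, and Ccne1 in 5 of 17 (lowest adjusted p 0.0181 and 0.0292 in the order given).

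Of 17 tested proliferation genes, 2 (E2f8 and Rrm2) were called lower in AA-deficient KO than in WT livers, against 1.55% of all genes. E2f8, an E2F repressor active in S phase and in polyploid hepatocytes, was at 0.317 and 0.192 in AA-deficient KO livers, 0.919 and 0.970 in AA-supplemented KO livers, and 1.06 and 0.9996 in WT livers. It fell by 0.774 against WT (SE 0.0533, adjusted p = 0.00278 in limma) and by 0.690 against AA-supplemented KO livers (SE 0.0533, adjusted p = 0.0193). Rrm2, a subunit of ribonucleotide reductase, was at 0.179 and 0.221 in AA-deficient KO livers, 0.413 and 0.385 in AA-supplemented KO livers, and 0.528 and 0.505 in WT livers (difference from WT -0.317, SE 0.0410, adjusted p = 0.0115). The AA-deficient KO values of E2f8 and Rrm2 lay in the range of the deleted Rgn in KO livers (0.141 to 0.339), and that of Rrm2 on 1 array lay below the filter value, so they cannot be separated from background and the true size of both falls is not settled. Over the whole list 7 of 17 genes were above 0 against WT, with a median of -0.0164. At an unadjusted p under 0.05 in limma there were 6 of the 17, 3 higher and 3 lower, against 20.4% of all genes.

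**Figure D3:**
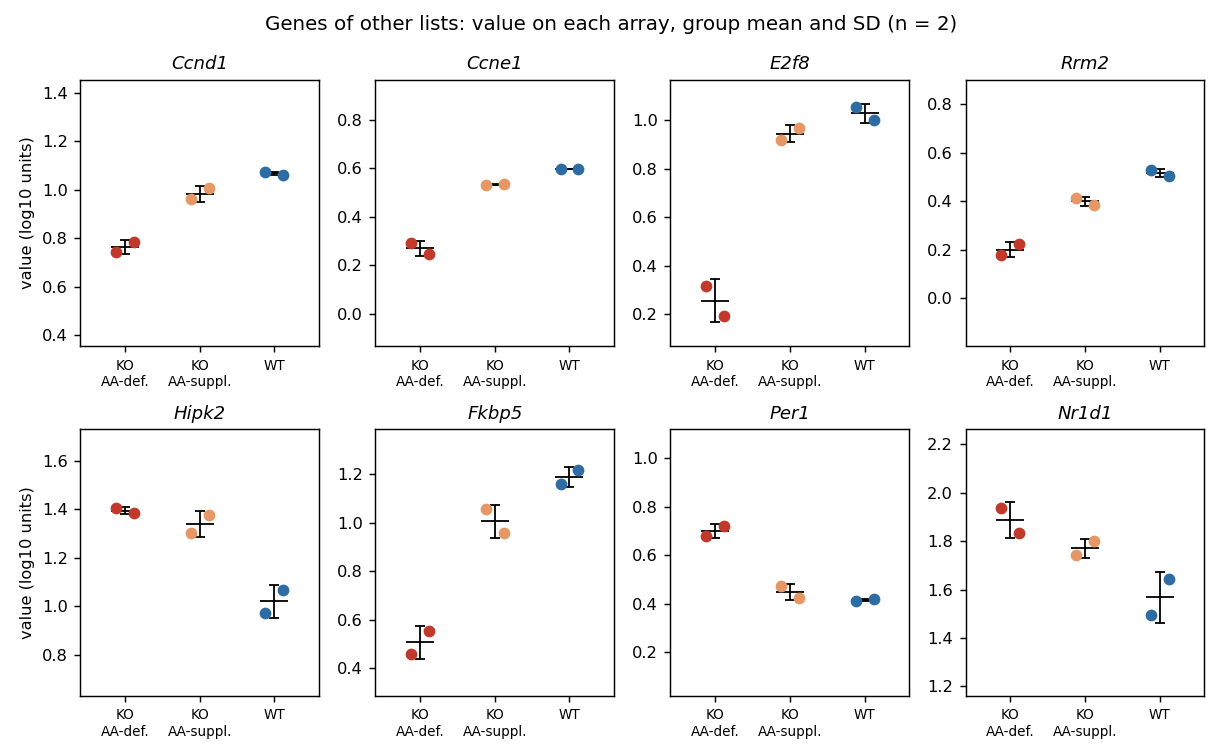
Value of 8 genes of other lists on each array (points, log10 units) with the group mean and SD (bars, n = 2), from left to right AA-deficient KO, AA-supplemented KO and WT. The AA-deficient KO arrays lie apart below the other 4 for Ccnd1, Ccne1, E2f8, Rrm2 and Fkbp5, and Hipk2 is high in both KO groups.

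The remaining lists of senescence held no call in limma as fitted. None of 6 tested further CDK inhibitors and pocket proteins was called. Among them Cdkn1b, which encodes the inhibitor p27, was at 0.862 and 0.837 in AA-deficient KO and 0.905 and 0.931 in WT livers (difference -0.0686, adjusted p = 0.388). Cdkn3 was at 0.1005 and 0.235 in AA-supplemented KO and 0.247 and 0.241 in WT livers (adjusted p = 0.655). Beside Lmnb1, 0 of 8 genes of the nuclear lamina and chromatin were called. Lbr, the lamin B receptor, was at 0.379 and 0.449 in AA-deficient KO and 0.527 and 0.552 in WT livers (difference -0.125, adjusted p = 0.147), and Hmgb1 differed by 0.113 (adjusted p = 0.398).

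Beside Glb1, 0 of 15 tested lysosomal genes were called, and 9 of them had AA-deficient KO arrays wholly above WT arrays and 2 wholly below, against 27.6% of all genes above and 26.9% below. At an unadjusted p under 0.05 there were 2 of the 15 in that comparison, against 20.4% of all genes. Gaa, lysosomal alpha-glucosidase, was at 1.31 on both arrays of AA-deficient KO, and at 1.18 and 1.17 in WT livers (difference 0.136, SE 0.0387, adjusted p = 0.0929 in limma). Man2b1, lysosomal alpha-mannosidase, differed by 0.114 (adjusted p = 0.151). Gaa was called in 4 of 17 other settings (lowest adjusted p 0.0156) and Man2b1 in 1 (adjusted p 0.0442). Of 25 listed secreted factors of senescent cells, 14 were tested and 0 were called. At an unadjusted p under 0.05 there were 5 of 14 between the KO groups, 3 higher and 2 lower, against 9.92% of all genes, and 2 of 14 between AA-deficient KO and WT livers, against 20.4%. Between AA-supplemented KO and WT livers there were 4, all higher, against 10.6%. Tgfb1, a cytokine that restrains growth, was at 0.668 and 0.696 in AA-deficient KO livers, 0.809 and 0.825 in AA-supplemented KO livers, and 0.651 and 0.681 in WT livers. Its AA-supplemented KO arrays were above all others, by 0.151 against WT (adjusted p = 0.266), and AA-deficient differed from AA-supplemented KO livers by -0.135 (adjusted p = 0.287). Icam1, an adhesion molecule, differed by -0.223 between the KO groups (adjusted p = 0.239). Igfbp3, an insulin-like growth factor binding protein named here after its values were seen, lay the other way, at 0.204 between the KO groups (adjusted p = 0.254) and 0.192 between AA-deficient KO and WT livers (adjusted p = 0.0987).

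**Figure D4:**
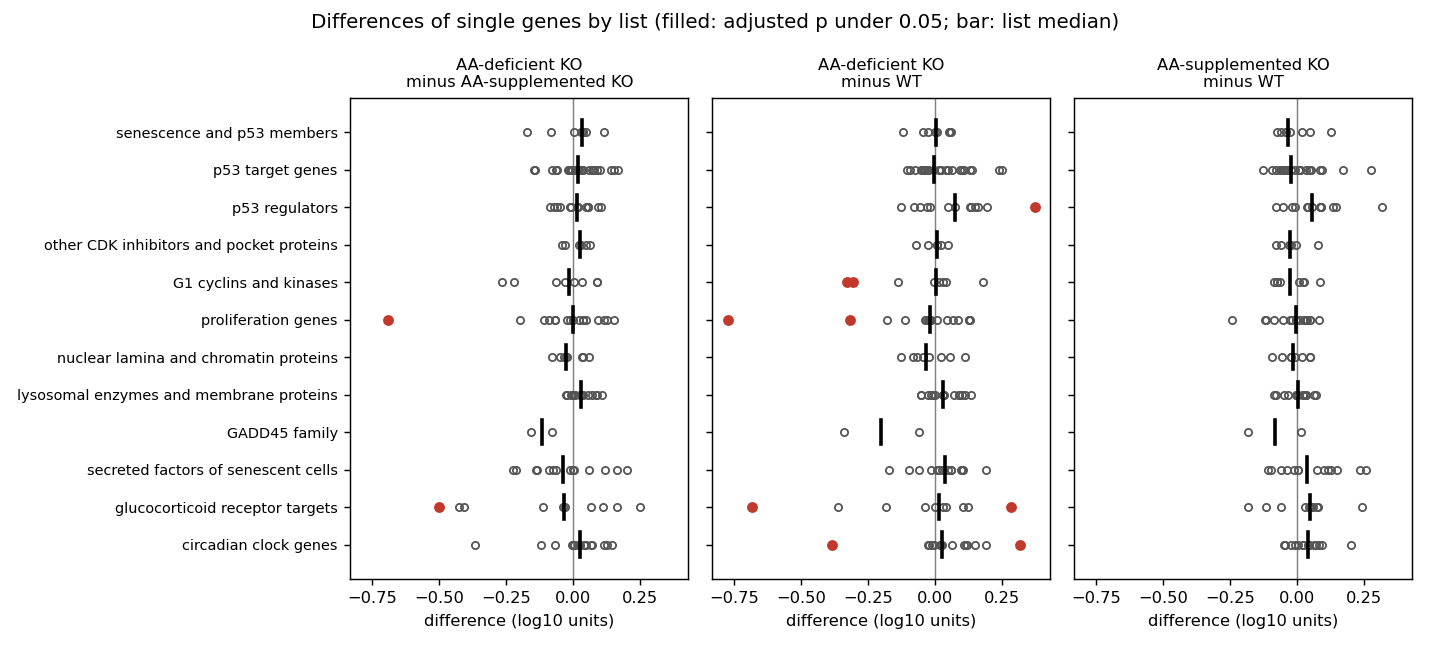
Difference of every tested gene (points, log10 units) in 12 lists and 3 comparisons, with the list median (bar) and genes at an adjusted p under 0.05 in limma filled. The 8 senescence and p53 genes in the top row lie between -0.172 and 0.130, and filled points lie in the rows of p53 regulators, G1 cyclins and kinases, proliferation genes, glucocorticoid receptor targets and clock genes.

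Genes of other lists moved beside these calls. Fkbp5, a glucocorticoid receptor target, was at 0.459 and 0.555 in AA-deficient KO livers, 1.06 and 0.959 in AA-supplemented KO livers, and 1.16 and 1.22 in WT livers, and fell against both (adjusted p = 0.0263 and 0.00327 in limma). Of 10 such targets, Per1, also a clock gene, rose against WT by 0.284 (SE 0.0417, adjusted p = 0.0168). Against WT 5 of the 10 lay above 0 and 5 below, with a median of 0.0160. Of all genes tested, 3.08% were called higher and 1.55% lower in AA-deficient KO than in WT livers. Between the KO groups 0.205% were called. Among 15 other clock genes Nr1d1 rose by 0.318 (SE 0.0616, adjusted p = 0.0337) and Ciart fell by 0.385 (SE 0.0776, adjusted p = 0.0385) in AA-deficient KO livers against WT. Of the 15, 10 lay above 0 and 5 below in that comparison. Of 8 liver endothelial markers, Stab2 was called higher in AA-deficient KO than in WT livers, by 0.237 (SE 0.0449, adjusted p = 0.0320), against 3.08% of all genes. Above 0 were 6 of the 8 and below 0 were 2. The summed linear level of these 8 markers was 139 to 145 in AA-deficient KO, 127 to 129 in AA-supplemented KO and 135 to 144 in WT livers. No marker of 6 other cell types was called. The part of these genes in the falls of cyclins was not tested.

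The calls of these other genes depended on the arrays and settings of the fit. Of the 9 named genes called between AA-deficient KO and WT livers, 0 remained called without either WT array, 4 (Ccne1, Ciart, E2f8 and Fkbp5) without AA-deficient KO array 1 and 2 (E2f8 and Fkbp5) without AA-deficient KO array 2. Between the KO groups, the calls of E2f8 and Fkbp5 were both lost without AA-supplemented KO array 2 or either WT array, and that of Fkbp5 without AA-deficient KO array 1. The differences themselves moved less, from -0.753 to -0.628 for E2f8 and -0.548 to -0.452 for Fkbp5 between the KO groups, and from -0.350 to -0.304 for Ccne1 and 0.327 to 0.422 for Hipk2 against WT. Leaving out a WT array does not alter a difference between the KO groups and takes 1 of the 3 residual degrees of freedom. Both calls between the KO groups were also lost with no filter on low values and with only the 4 arrays compared, and the replicate number as a block ended that of Fkbp5. Against WT, the block ended the calls of Per1 and Nr1d1, and the lack of a filter those of Nr1d1 and Ciart. For the 8 senescence and p53 genes, 0 were called in any of these fits.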

How the data were processed

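Per the labels' protocols, liver RNA was extracted with ISOGEN and biotin-labelled with an Affymetrix GeneChip kit. The deposited table holds log values, taken here as log10 since they ran from -0.58 to 2.51 (1213-fold as log10, 8.48-fold as log2). The sources used here give no software, normalisation or log base. Of 34760 probe sets, 3995 held no value. Among the 30765 others, 21161 had 1 gene symbol, 1150 several and 8454 none in the platform annotation. For each gene the probe set of highest mean was taken, and those whose mean reached the 25th percentile (0.185) were tested. Limma 3.58.1 (R 4.3.3, with lmFit, contrasts.fit and eBayes) was run on all 6 arrays, with 3 residual and 4.89 prior degrees of freedom. The code was also run on simulated data whose spread was drawn from this fit. That run does not show how small a change in these livers would be called. P-values are two-sided. The number of arrays limits precision.

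The members and gene lists were chosen with earlier results of these data known. Named beside the members were genes past the threshold in each list (at most 6) or, where none passed, the 2 of smallest p. Mdm4 and Igfbp3 were named outside this rule, after their values were seen. A further rule, to name genes patterned like Cdkn1a, could not be applied. Alternatives covered the variance model, filter, normalisation, probe sets, arrays in the fit and a replicate block.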

Additional observations from a re-analysis of the deposited data

How the results depend on the processing

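Under other settings (variance model, filter, normalisation, probe sets, arrays in the fit, replicate block), 0 of the 8 genes were called in limma in any comparison (17 settings) or by the F test (16), and at an unadjusted p under 0.05 there were 0 or 1 in each comparison and 0 to 2 by the F test. The smallest adjusted p was 0.0884, for Cdkn2c between AA-deficient KO and WT livers with crossed numbers. Of 399 recomputed differences, 21 changed sign, all of them uncalled. Between the KO groups, Mdm2 was at -0.000788 (quantile normalisation) and -0.000454 (cyclic loess), and Lmnb1 between AA-deficient KO and WT livers was at 0.000118 after median centring and 0.00361 after cyclic loess. With single arrays left out, the differences between the KO groups ranged from -0.0266 to 0.0374 for Mdm2 and -0.00849 to 0.0731 for Glb1. They ranged from -0.0234 to 0.101 for Lmnb1, -0.0163 to 0.0936 for Cdkn2b and, outside the 8 genes, -0.183 to 0.0289 for Gadd45b. Those of AA-deficient KO against WT ranged from -0.0840 to 0.0366 for Cdkn2a, -0.0328 to 0.0482 for Glb1, -0.0627 to 0.0614 for Lmnb1 and -0.148 to 0.0628 for Gadd45a. Those of AA-supplemented KO against WT ranged from -0.0342 to 0.0758 for Cdkn2b, -0.0654 to 0.0162 for Glb1 and -0.0123 to 0.272 for Gadd45a. Over all genes, calls numbered 30 between the KO groups (0 to 177 under other settings), 679 between AA-deficient KO and WT livers (1 to 1561) and 1 between AA-supplemented KO and WT livers (1 to 116). The cause was not tested. The labels give same-numbered arrays nothing in common but the number. Their deviations correlated at -0.369 between the KO groups, 0.358 between AA-deficient KO and WT and -0.284 between AA-supplemented KO and WT livers. Whether same-numbered arrays belong together was not tested. With the replicate block 4, 163 and 3 genes were called in the same order and 0 of the 8, and with the numbers of AA-supplemented KO arrays crossed, chosen after seeing the data, 75, 1561 and 1. Under the 50th percentile filter Cdkn2a, Cdkn2b and Lmnb1 were not tested.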
